A study of Mus musculus with 10 samples.

Results

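Globin and red cell genes were followed in RNA sequencing of the mouse dorsal telencephalon at embryonic day 12. From the 38803 gene symbols listed for each library, 7 were chosen by name, not by measured level, with earlier results of these data known. They were the adult alpha globins Hba-a1 and Hba-a2, the embryonic alpha-like globin Hba-x, the embryonic beta-like globins Hbb-y and Hbb-bh1, the haem synthesis enzyme gene Alas2 and the membrane anion exchanger gene Slc4a1. The mutant group held 5 libraries of genotype Rnu11Flx/Flx::Emx1-Cre+/- and the control group 5 libraries of genotype Rnu11WT/Flx::Emx1-cre+/-, both on the C57/Bl6 - 129 SvJ background. Both groups carried Emx1-Cre and at least 1 floxed copy of Rnu11, the gene of the U11 small nuclear RNA of the minor spliceosome. Emx1-Cre acts in progenitors of the dorsal telencephalon. Whether red cells of these embryos carried a recombined allele was not measured. The labels do not say that the libraries of a group came from separate embryos, so p-values measure the spread between these libraries, which may be technical in part.

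Haemoglobin is a tetramer of alpha-like and beta-like globin chains, each holding a haem group. In the mouse, the first wave of red cells arises in the yolk sac, circulates in the embryo and makes the embryonic chains Hba-x, Hbb-y and Hbb-bh1 together with the adult alpha chains. Definitive red cells from the fetal liver make adult alpha chains with the adult beta chains Hbb-bs and Hbb-bt. Dissected embryonic tissue can carry blood within its vessels. Alas2 encodes the red cell form of 5-aminolevulinate synthase, the first and rate-limiting enzyme of haem synthesis. Slc4a1 encodes band 3, the anion exchanger that also ties the red cell membrane to its skeleton.

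The alpha-like genes lie together on chromosome 11 and the beta-like genes together on chromosome 7. Promoter sequences are shown because the globin genes and Alas2 are known targets of shared red cell transcription factors. A promoter was matched for 5 of the 7 genes, the others being Hbb-bh1 and Slc4a1. The 250 bases before the RefSeq start (GRCm38.p6), read 5′ to 3′ in the direction of the gene, were taken at chr11:32283422-32283671 on the plus strand for Hba-a1, chr11:32276350-32276599 on the plus strand for Hba-x, chr7:103853208-103853457 on the minus strand for Hbb-y and chrX:150547167-150547416 on the plus strand for Alas2. The promoter of Hba-a2, at chr11:32296242-32296491 on the plus strand, shared an unbroken run of 247 bases with that of Hba-a1 and is not repeated.
Hba-a1: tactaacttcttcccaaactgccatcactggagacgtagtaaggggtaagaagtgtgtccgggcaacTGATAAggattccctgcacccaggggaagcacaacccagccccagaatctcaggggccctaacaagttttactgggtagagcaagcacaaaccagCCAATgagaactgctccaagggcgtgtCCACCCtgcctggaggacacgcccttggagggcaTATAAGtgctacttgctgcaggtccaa
Hba-x: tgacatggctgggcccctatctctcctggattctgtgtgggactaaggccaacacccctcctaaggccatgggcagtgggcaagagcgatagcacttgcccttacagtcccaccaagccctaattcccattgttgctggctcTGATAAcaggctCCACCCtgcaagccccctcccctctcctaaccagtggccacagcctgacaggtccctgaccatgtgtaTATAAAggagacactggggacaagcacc
Hbb-y: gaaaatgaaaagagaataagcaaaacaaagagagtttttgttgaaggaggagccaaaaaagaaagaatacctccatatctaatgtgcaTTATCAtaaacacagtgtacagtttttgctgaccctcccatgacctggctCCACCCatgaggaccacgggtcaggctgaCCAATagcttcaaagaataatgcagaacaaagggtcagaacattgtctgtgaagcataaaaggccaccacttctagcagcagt
Alas2: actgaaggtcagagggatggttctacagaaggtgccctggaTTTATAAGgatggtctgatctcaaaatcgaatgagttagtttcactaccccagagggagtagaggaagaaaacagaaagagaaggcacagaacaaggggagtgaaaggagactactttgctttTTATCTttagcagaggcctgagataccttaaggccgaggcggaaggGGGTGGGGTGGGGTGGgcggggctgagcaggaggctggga
Capitals mark words searched on both strands. A word of the GATA factors was AGATAA or, with another first letter, TGATAA. The CACC box was the word CCACCC. The word CCAAT was searched as written. The last was a TATA word, TATAAA or, with another last letter, TATAAG. These words were picked after the promoters had been seen, so the matches are a description. Overlapping matches run together in Alas2, where 2 TATA words on opposite strands overlap, and where 3 CACC boxes on the opposite strand overlap. In the Hba-a1 promoter the GATA word began 183 bases before the start, the CCAAT word 88, the CACC box 61 and the TATA word 27. In Hba-x the GATA word began 108 bases before the start, the CACC box 96 and the TATA word 28. In Hbb-y the CACC box began 112 and the CCAAT word 83 bases before the start, and a GATA word lay on the opposite strand. Among 32851 promoters of the same length, 16.6% held a GATA word, 28.1% a CACC box, 33.8% a CCAAT word and 17.0% a TATA word.

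In the GENCODE annotation of the same build, Hba-x spans chr11:32276400-32278116, Hba-a1 chr11:32283511-32284465 and Hba-a2 chr11:32296489-32297298, all on the plus strand. Hbb-bh1 spans chr7:103841637-103843164 and Hbb-y chr7:103851749-103853216, both on the minus strand. Alas2 spans chrX:150547375-150570638 on the plus strand and Slc4a1 chr11:102348824-102366203 on the minus strand. Of the 50-base words of the Hba-a1 transcripts 67.5% also occur in Hba-a2, and 86.9% of those of Hba-a2 occur in Hba-a1. The split of reads between these adult alpha genes is therefore uncertain. The same holds for the adult beta genes, with 65.8% of the words of Hbb-bs shared with Hbb-bt. The other 5 genes shared 0% of their words with another gene. Alas2 overlaps Apex2 on the opposite strand, and no source used here says whether reads were counted by strand.

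Levels are FPKM, which count fragments per kilobase of a gene's transcript and are scaled by the size of the library. The targeted RNA, Rnu11, lay at 712, 473, 511, 1344 and 1421 FPKM in mutants 1 to 5 and 1913 to 2817 FPKM in controls. The depth of a library, estimated roughly from the smallest steps of the values, was 12900000 to 21400000 fragments in mutants and 9770000 to 20900000 in controls, lowest in control 4. The libraries fell into 2 sets across genotype by the level of Rnu12, a small nuclear RNA. Mutant 4, mutant 5 and control 5 lay above 100 FPKM of Rnu12 and are called the second set, and the other 7 libraries the first set. Rnu11 was thus less reduced in the mutants of the second set, at 1344 and 1421 FPKM against 2266 FPKM in control 5. All 10 dorsal telencephalon markers averaged at least 1 FPKM, and their sum was 218 to 265 FPKM in mutants and 199 to 280.1 FPKM in controls.

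Globin transcripts were present in every library, while several other erythroid markers were low. Of 14 listed markers 13 were measured, and 6 averaged at least 1 FPKM, all of them among the 7 genes described here. The other 7 averaged under 1 FPKM. Klf1, a transcription factor of the globin loci, averaged 0.626 ± 0.207 FPKM in mutants and 0.425 ± 0.146 FPKM in controls (SD, n = 5 each). Gata1, the GATA factor of red cells, averaged 0.378 ± 0.131 FPKM in mutants and 0.344 ± 0.0978 FPKM in controls. In dissected tissue, fewer red cells and less RNA per red cell cannot be told apart.

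Hba-a1, which encodes an adult alpha chain, lay at 622, 564, 424, 427 and 820 FPKM in mutants 1 to 5, against 508, 489.6, 321, 211 and 539 FPKM in controls 1 to 5. Mutant 5 was the highest library and control 4 the lowest, and the groups overlapped. The means were 571 ± 164 FPKM in mutants and 414 ± 141 FPKM in controls (SD, n = 5 each). The log2 difference, mutant minus control, was 0.50 (SE 0.27, 95% interval -0.09 to 1.10) and did not pass the test (limma, adjusted p = 0.617; exact two-sided permutation p = 0.159). Within the first set the mean was 537 ± 102 FPKM in 3 mutants and 383 ± 142 FPKM in 4 controls, and in the second set 623 FPKM over 2 mutants and 539 FPKM in control 5.

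Hba-a2, the neighbouring adult alpha gene, lay at 557, 579, 483, 432 and 747 FPKM in mutants, against 529, 553, 399.6, 214 and 539 FPKM in controls. Its order of libraries resembled that of Hba-a1, with mutant 5 highest and control 4 lowest, and the groups overlapped. The means were 559.6 ± 119.9 FPKM in mutants and 447 ± 144 FPKM in controls, a log2 difference of 0.38 (SE 0.26, interval -0.18 to 0.94; limma adjusted p = 0.682). In the first set Hba-a2 averaged 539.8 ± 50.01 FPKM in mutants and 424 ± 155 FPKM in controls, and in the second set 589 FPKM over 2 mutants and 539 FPKM in control 5. With both adult alpha genes summed, a choice made after seeing how much sequence they share, the log2 difference was 0.44 (SE 0.27; limma adjusted p = 0.649).

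Hba-x, the embryonic zeta chain, lay at 137, 133, 90.1, 198 and 305 FPKM in mutants, against 99.4, 129, 42.1, 55.5 and 228 FPKM in controls. It varied most among the 7 genes, with a highest value 7.24 times the lowest. The 3 libraries of the second set, mutant 4, mutant 5 and control 5, were the 3 highest, and the genotype groups overlapped. The means were 173 ± 83.4 FPKM in mutants and 111 ± 74.1 FPKM in controls, a log2 difference of 0.76 (SE 0.48, interval -0.31 to 1.83; limma adjusted p = 0.666). In the first set Hba-x averaged 119.95 ± 26.0 FPKM in mutants and 81.6 ± 40.1 FPKM in controls, and in the second set 252 FPKM over 2 mutants and 228 FPKM in control 5. With the set as a term, the genotype difference was 0.51 (SE 0.34; limma adjusted p = 0.562).

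Hbb-y, the embryonic epsilon-like chain, was the most abundant of the 7 in every library. It lay at 5397, 7316, 3310.1, 4156 and 5962 FPKM in mutants, against 6453, 6964, 4326, 2887 and 5322 FPKM in controls. Mutant 2 and control 2 were the highest libraries, control 4 and mutant 3 the lowest, and the groups overlapped over most of their range. The means were 5228 ± 1561 FPKM in mutants and 5191 ± 1644 FPKM in controls, a log2 difference of 0.023 (SE 0.28, interval -0.59 to 0.64; limma adjusted p = 0.987), whose sign turned under each of the 3 other scalings tried. In the first set Hbb-y averaged 5341 ± 2003 FPKM in mutants and 5158 ± 1896 FPKM in controls, and in the second set 5059 FPKM over 2 mutants and 5322 FPKM in control 5.

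Hbb-bh1, the other embryonic beta-like chain and the earlier of the pair in development, lay at 249, 442, 119, 244 and 339 FPKM in mutants, against 391, 359.5, 154, 132 and 389 FPKM in controls. Mutant 2 was the highest library and mutant 3 the lowest, so both ends of the range were mutants. The means were 279 ± 120.4 FPKM in mutants and 285 ± 131 FPKM in controls, a log2 difference of -0.0081 (SE 0.42, interval -0.94 to 0.92; limma adjusted p = 0.997). In the first set the mean of Hbb-bh1 was 269.9 ± 163 FPKM in mutants and 259 ± 135 FPKM in controls, and in the second set 292 FPKM over 2 mutants and 389 FPKM in control 5.

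Alas2 lay at 14.5, 11.2, 6.65, 5.65 and 10.7 FPKM in mutants, against 9.96, 6.52, 4.78, 5.10 and 8.39 FPKM in controls. Mutant 1 was the highest library and control 3 the lowest, and the groups overlapped. The means were 9.74 ± 3.60 FPKM in mutants and 6.95 ± 2.20 FPKM in controls, a log2 difference of 0.41 (SE 0.25, interval -0.14 to 0.95; limma adjusted p = 0.652; exact permutation p = 0.175). In the first set Alas2 averaged 10.8 ± 3.94 FPKM in mutants and 6.59 ± 2.37 FPKM in controls, and in the second set 8.15 FPKM over 2 mutants and 8.39 FPKM in control 5. Apex2, which overlaps Alas2 on the opposite strand, lay at 6.37 to 13.1 FPKM, and its part in the Alas2 values was not tested.

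Slc4a1 lay at 9.40, 9.47, 5.46, 7.63 and 10.8 FPKM in mutants, against 6.89, 8.54, 3.85, 3.30 and 15.7 FPKM in controls. Control 5 was the highest library and control 4 the lowest, so the controls enclosed the mutants. The means were 8.56 ± 2.07 FPKM in mutants and 7.67 ± 5.01 FPKM in controls, a log2 difference of 0.29 (SE 0.34, interval -0.46 to 1.04; limma adjusted p = 0.822). In the first set Slc4a1 averaged 8.11 ± 2.30 FPKM in mutants and 5.65 ± 2.50 FPKM in controls, and in the second set 9.23 FPKM over 2 mutants and 15.7 FPKM in control 5.

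**Figure D1:**
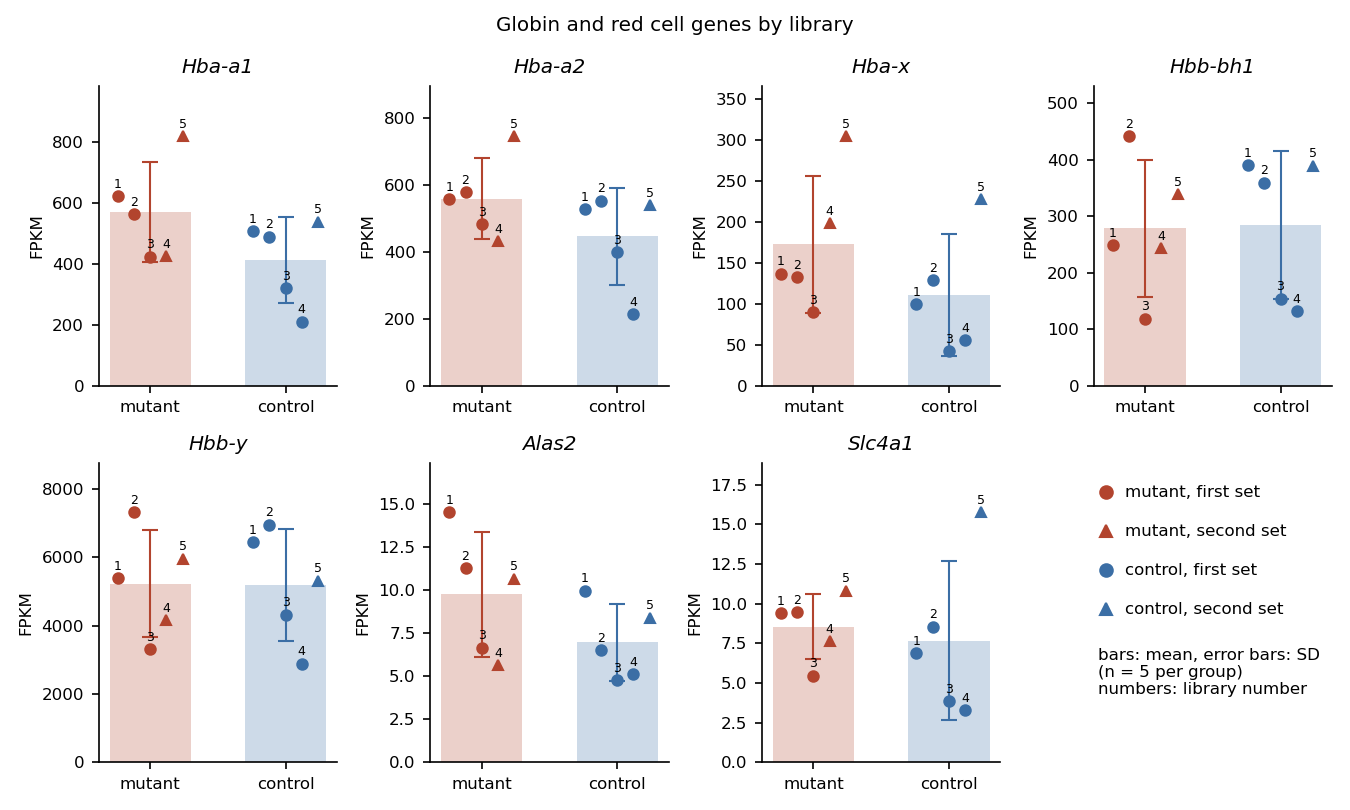
FPKM of the 7 erythroid genes in each library, 1 panel per gene, with mutants left of controls. Bars are means and error bars SD (n = 5 per group), numbers are library numbers and triangles mark the second set; the groups overlap in every panel, and in the Hba-x panel the triangles, at 198 to 305 FPKM, sit above all circles, at 42.1 to 137 FPKM.

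Of the 7 genes, all passed the filter on low values and 0 passed the genotype test in limma at an adjusted p of 0.05, in either direction. Among all 13522 tested genes 0.155% passed, 0.0887% as higher and 0.0666% as lower. The groups overlapped for all 7, while 1.52% of all tested genes were higher and 0.377% lower with no overlap. At an unadjusted p under 0.05 in limma, 0 of the 7 passed, against 8.76% of all tested genes. The exact permutation tests gave p = 0.159 to 0.976 (0.444 to 0.976 after adjustment over the 7). With the replicate number as a block, 4 of the 7 fell under 0.05 before adjustment in limma, against 10.3% of all tested genes. After adjustment 0 passed in that fit, and whether the numbers pair the libraries could not be settled. The log2 difference lay above 0 for 6 of the 7 genes, as it did for 75.7% of all tested genes, and its median was 0.38 against 0.11 over all tested genes. The intervals were wide, and a p above the threshold does not show that the groups had the same levels. With the set as a term, the differences were 0.44 for Hba-a1, 0.33 for Hba-a2, 0.51 for Hba-x, -0.10 for Hbb-bh1, 0.016 for Hbb-y, 0.42 for Alas2 and 0.15 for Slc4a1, and again 0 of 7 passed in limma, against 0.547% of all tested genes.

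**Figure D2:**
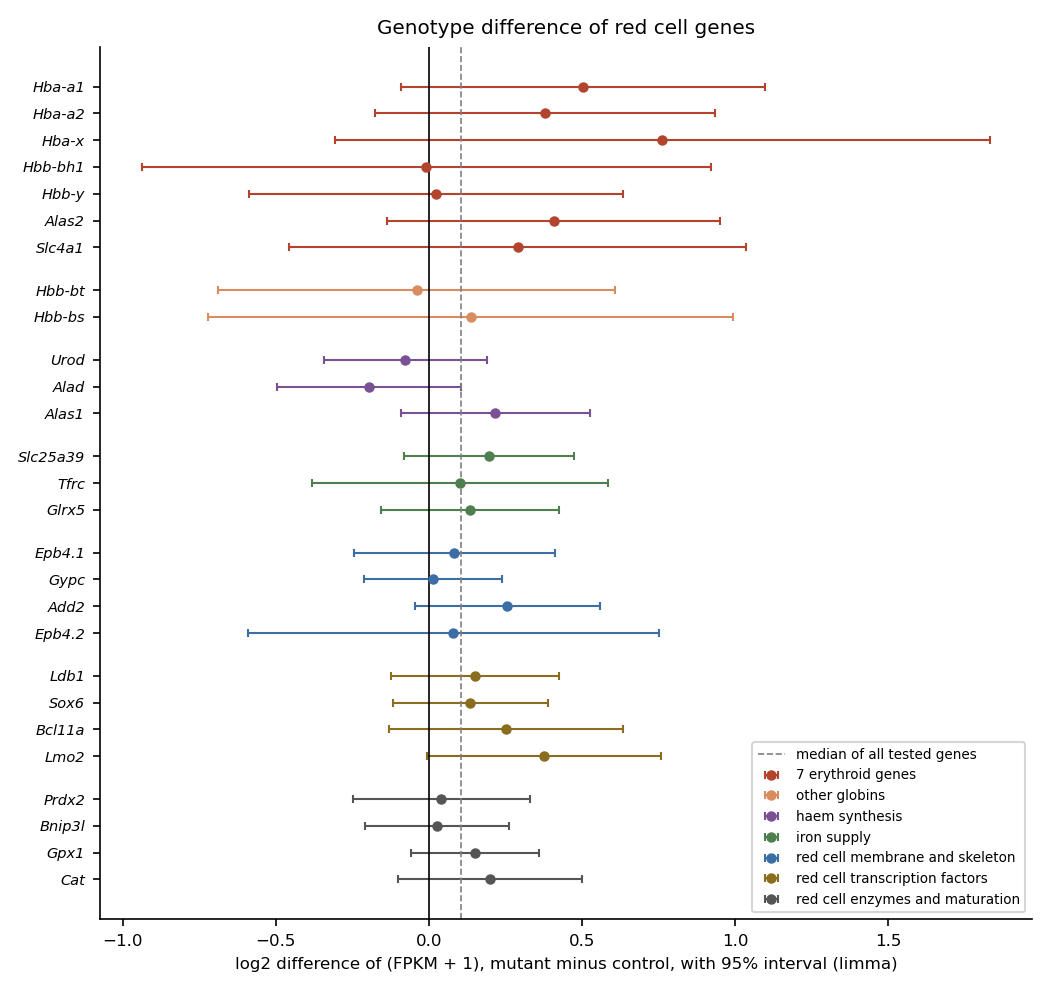
Difference of log2(FPKM + 1), mutant minus control, on the x axis with its 95% interval from limma, for the 7 erythroid genes and abundant genes of 6 related lists, grouped by list. The dashed line is the median of all tested genes at 0.11; the intervals of the 7 genes all cross 0, and that of Hba-x is the longest, at -0.31 to 1.83.

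The 7 genes tended to be high or low in the same libraries. The ratio of the highest to the lowest library ran from 2.53 for Hbb-y to 7.24 for Hba-x. Mutant 2 and mutant 5 lay above the median of the 10 libraries for 7 of 7 genes. Control 4 had the lowest value for 4 of the 7 genes and was among the 3 lowest libraries for all 7. Control 3 was among the 3 lowest for 6 genes and mutant 3 for 5. Control 4 was also the library with the smallest rough depth, and the part of depth in these levels was not tested. Within the 7 libraries of the first set, the 21 pairs of the 7 genes had Pearson r of 0.60 to 0.96 (median 0.80) and Spearman rho of 0.50 to 1.00 on log2 values. Among all pairs of 11234 genes over the same 7 libraries the median Pearson r was 0.34, with 26.8% of pairs at or above the lowest and 8.76% at or above the median of the 21. All pairs shared libraries and scaling. Exact permutation p-values were adjusted over the 21 pairs. Hbb-bh1 and Hbb-y, the embryonic beta-like pair, had r = 0.96 (rho = 0.93, exact permutation adjusted p = 0.0073 for r and 0.018 for rho). Without the 2 libraries farthest from the median of Hbb-bh1, r was 0.98. Hba-a2 and Slc4a1 had r = 0.86 and rho = 1.00 (adjusted p = 0.0042 and 0.0083 in exact permutation tests). Without the 2 libraries farthest from the median of Hba-a2, r was 0.97. Hbb-y and Alas2 had the lowest r, 0.60 (rho = 0.50, adjusted p = 0.159 and 0.267 in exact permutation tests). Without the 2 libraries farthest from the median of Hbb-y, r was 0.40. No r is given across both sets, since they stand apart.

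In order of level per transcript length, Hbb-y came first, followed by Hba-a2, Hba-a1, Hbb-bh1, Hba-x, Alas2 and Slc4a1. Hbb-y exceeded Hba-a2 in 10 of 10 libraries, by 6.85 to 13.5 times. Hba-a2 and Hba-a1 did not separate, with Hba-a2 higher in 8 of 10 libraries and a ratio of 0.896 to 1.24. Hba-a1 exceeded Hbb-bh1 in 10 of 10 libraries, by 1.28 to 3.56 times, and Hbb-bh1 exceeded Hba-x in 10 of 10, by 1.11 to 3.93 times. Hba-x exceeded Alas2 by 8.81 to 35.1 times. Alas2 and Slc4a1 did not separate, with Alas2 higher in 6 of 10 libraries.

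The globin signal was mainly embryonic. The sum of Hbb-y, Hbb-bh1, Hba-x, Hba-a1, Hba-a2, Hbb-bs and Hbb-bt was 5389 to 10147 FPKM in mutants and 3901 to 9695 FPKM in controls. That was 1.57 to 2.96% of the FPKM of all protein-coding genes in mutants and 1.12 to 3.00% in controls. Hbb-y alone made up 67.0 ± 4.12% of the globin sum in mutants and 70.4 ± 3.40% in controls (SD, n = 5 each). The 3 embryonic chains together made up 72.8 ± 5.12% in mutants and 75.6 ± 4.06% in controls. The share was lowest in mutant 3, at 65.3%, and in control 3, at 68.6%.

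**Figure D3:**
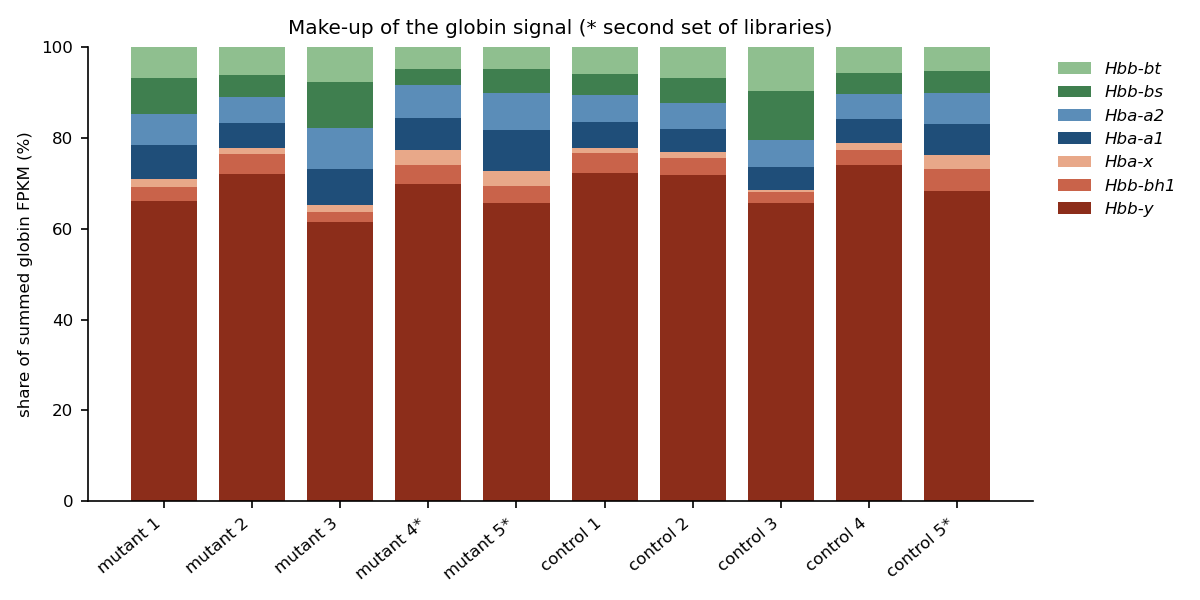
Share of each of 7 globin genes in the summed globin FPKM, in percent, for each library, with mutants left of controls and the second set marked by asterisks. Hbb-y fills 61.4 to 72.1% of the bar in mutants and 65.6 to 74.0% in controls, and the green adult beta shares are widest in mutant 3 and control 3.

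Ratios between globins within a library do not depend on its scaling. They were chosen after the levels had been seen and are given without a test. The adult chains Hbb-bs and Hbb-bt made up 17.5, 12.6, 21.9, 10.1 and 12.7% of the beta-like FPKM in mutants 1 to 5, against 12.1, 14.1, 23.1, 11.7 and 12.1% in controls 1 to 5. Mutant 3 and control 3 were the highest, and these were also libraries with low embryonic globins. The share was 11.7% in control 4, the lowest library for Hbb-y, and 10.1% in mutant 4, with less Hbb-y than control 3. Within the embryonic beta-like pair, Hbb-bh1 made up 3.47 to 5.70% in mutants and 3.44 to 6.82% in controls, again lowest in mutant 3 and control 3. The ratio of beta-like to alpha-like FPKM was 5.20, 6.95, 4.40, 4.63 and 3.86 in mutants, against 6.86, 7.27, 7.64, 7.12 and 4.98 in controls. Mutants 1 and 2 lay within the range of the controls and controls 1 and 5 within that of the mutants, so the groups overlapped. Within the first set the ratio was 4.40 to 6.95 in 3 mutants and 6.86 to 7.64 in 4 controls.

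**Figure D4:**
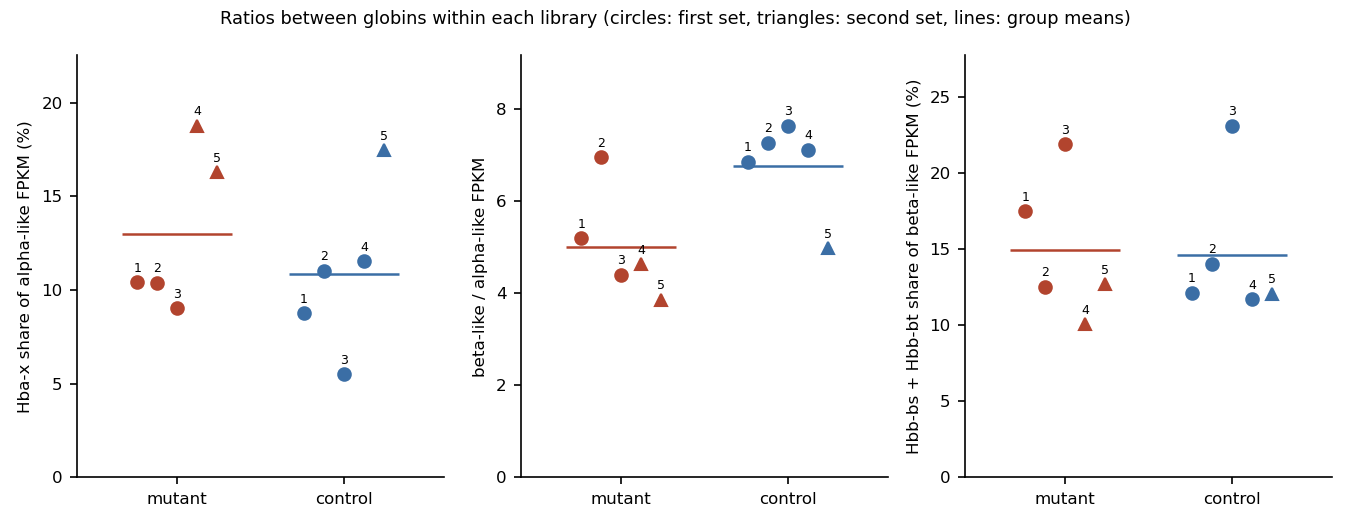
Within-library ratios by genotype, mutants left of controls: Hba-x as a percentage of alpha-like FPKM, beta-like over alpha-like FPKM, and the adult beta chains as a percentage of beta-like FPKM. Points are libraries with their numbers, triangles the second set and lines group means; the triangles stand at 16.3 to 18.8% in the Hba-x panel, against 5.52 to 11.5% for the circles.

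The Hba-x share separated the sets rather than the genotypes. Hba-x made up 10.4, 10.4, 9.03, 18.8 and 16.3% of alpha-like FPKM in mutants 1 to 5, against 8.75, 11.0, 5.52, 11.5 and 17.5% in controls 1 to 5. The 3 second-set libraries were above the other 7, with no overlap. In a contrast of the sets that was made after this separation had been noticed, Hba-x was higher in the second set by 1.28 on the log2 scale (SE 0.37; limma with genotype as a term, adjusted p = 0.0439). Of all tested genes 20.8% passed in that contrast, and 15.5% had sets that did not overlap with the second set higher and 6.28% with it lower. The call was lost without any 1 of 8 of the 10 libraries and held without control 2 or control 3, with adjusted p from 0.0244 to 0.220 in limma. The other 6 genes did not pass, with adjusted p of 0.196 to 0.949 in limma. What separated the sets was not tested.

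The other globins included the adult beta chains, which definitive red cells use. Hbb-bs lay at 643, 495, 549, 202 and 480.2 FPKM in mutants, against 422, 543, 706, 178 and 367 FPKM in controls. Hbb-bt lay at 555, 618, 413, 290.1 and 438 FPKM in mutants, against 524, 656, 643, 223 and 419 FPKM in controls. Control 4 and mutant 4 were the lowest for both, and the groups overlapped. The log2 difference was 0.14 for Hbb-bs (SE 0.39; limma adjusted p = 0.936) and -0.04 for Hbb-bt (SE 0.30; limma adjusted p = 0.979). Of 9 further listed genes, 8 globins and the alpha chain chaperone gene Ahsp, 6 were measured and 3 tested, with 0 called in limma and 0 at an unadjusted p under 0.05. Hbq1b, a theta-like globin, averaged 0.547 ± 0.390 FPKM in mutants and 0.657 ± 0.499 FPKM in controls. Hbb-bh0, a short pseudogene of the beta cluster, ran from 0 to 14.3 FPKM. Among the globins of other tissues 1 of 3 was tested, cytoglobin (Cygb), at 1.57 ± 0.571 FPKM in mutants and 1.23 ± 0.288 FPKM in controls, and 0 were called in limma, also at an unadjusted p under 0.05. Neuroglobin (Ngb) averaged 0.132 ± 0.0852 FPKM in mutants and 0.112 ± 0.0775 FPKM in controls.

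The haem synthesis list held 8 enzymes besides Alas2, of which 0 passed in limma, with 1 at an unadjusted p under 0.05 and a median log2 difference of 0.081. Urod, uroporphyrinogen decarboxylase, averaged 39.0 ± 5.53 FPKM in mutants and 41.1 ± 4.98 FPKM in controls. Alad, aminolevulinate dehydratase, averaged 24.3 ± 3.83 FPKM in mutants and 28.0 ± 4.34 FPKM in controls. Alas1, the form of the first enzyme found in most tissues, averaged 18.9 ± 2.25 FPKM in mutants and 16.3 ± 3.35 FPKM in controls, above Alas2 in both groups.

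Of 10 iron supply genes 9 were tested and 0 passed in limma, with 0 at an unadjusted p under 0.05 and a median of 0.076. Tfrc, the transferrin receptor, averaged 22.5 ± 5.38 FPKM in mutants and 21.4 ± 7.85 FPKM in controls. Slc25a39, a mitochondrial carrier, averaged 43.3 ± 3.33 FPKM in mutants and 38.0 ± 6.95 FPKM in controls. Glrx5, which takes part in making iron-sulfur clusters, averaged 19.0 ± 3.55 FPKM in mutants and 17.1 ± 2.17 FPKM in controls.

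Of 18 further genes of the red cell membrane and its skeleton 7 were tested and 0 passed in limma, with 0 at an unadjusted p under 0.05 and a median of 0.083. Epb4.1, the skeleton protein 4.1, averaged 51.1 ± 4.07 FPKM in mutants and 49.2 ± 11.9 FPKM in controls. Gypc, glycophorin C, averaged 7.85 ± 0.689 FPKM in mutants and 7.77 ± 0.767 FPKM in controls. Add2, an adducin that neurons also make, averaged 8.44 ± 1.25 FPKM in mutants and 6.94 ± 1.42 FPKM in controls. Epb4.2, protein 4.2, averaged 2.50 ± 1.23 FPKM in mutants and 2.35 ± 1.34 FPKM in controls.

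Of 14 red cell transcription factors 8 were tested and 0 passed in limma, with 0 at an unadjusted p under 0.05 and a median of 0.16. The most abundant of them also act outside red cells. Ldb1, a bridging cofactor of LIM and GATA factors, averaged 81.0 ± 8.08 FPKM in mutants and 73.4 ± 12.1 FPKM in controls. Sox6, a repressor of embryonic globins, averaged 20.7 ± 1.64 FPKM in mutants and 18.8 ± 2.86 FPKM in controls. Bcl11a, also a repressor of embryonic globins and a gene of cortical neurons, averaged 16.2 ± 4.20 FPKM in mutants and 13.2 ± 2.11 FPKM in controls. Lmo2, a partner of Ldb1 in blood and endothelium, averaged 13.9 ± 1.51 FPKM in mutants and 10.8 ± 3.20 FPKM in controls. Of 16 enzymes and maturation genes of red cells 8 were tested and 0 passed in limma, with 0 at an unadjusted p under 0.05 and a median of 0.17. Prdx2, a peroxiredoxin, averaged 318 ± 48.9 FPKM in mutants and 308 ± 31.1 FPKM in controls. Bnip3l, which clears mitochondria from maturing red cells, averaged 74.6 ± 9.69 FPKM in mutants and 73.0 ± 5.63 FPKM in controls. Gpx1, glutathione peroxidase, averaged 67.0 ± 4.49 FPKM in mutants and 60.3 ± 4.95 FPKM in controls. Cat, catalase, averaged 43.1 ± 5.62 FPKM in mutants and 37.7 ± 7.31 FPKM in controls.

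Markers of the other cells that come with blood vessels were measured beside the globins. Of 12 white cell and macrophage markers 11 were tested and 0 passed in limma. An unadjusted limma p under 0.05 was reached by 5 of the 11, against 8.76% of all tested genes. All 11 differences lay above 0, as did 75.7% over all tested genes. The median log2 difference was 0.66, against 0.11 over all tested genes. The summed level of the 12 was 43.8 to 137 FPKM in mutants and 28.6 to 66.7 FPKM in controls. None of the 12 was at 0 in any library. C1qa, a complement chain made by macrophages, averaged 14.5 ± 7.28 FPKM in mutants and 6.80 ± 3.36 FPKM in controls (log2 difference 0.98, limma adjusted p = 0.563). C1qb averaged 17.9 ± 8.20 FPKM in mutants and 10.1 ± 3.83 FPKM in controls. Mutant 3, which was low for the embryonic globins, had the highest C1qb of all libraries at 27.3 FPKM. Mutant 1 came next at 24.3 FPKM and lay above the median for 6 of the 7 erythroid genes. Control 4, among the 3 lowest libraries for all 7, had the lowest C1qb at 6.10 FPKM. Of 9 platelet and megakaryocyte markers 4 were tested and 0 passed in limma, also unadjusted at 0.05, with a median of 0.21 and a summed level of 12.7 to 27.6 FPKM in mutants and 8.79 to 21.3 FPKM in controls. Pf4, platelet factor 4, averaged 12.0 ± 5.42 FPKM in mutants and 8.06 ± 3.22 FPKM in controls. Of 12 endothelial markers 11 were tested and 0 passed in limma, also unadjusted at 0.05, with a median of 0.18 and a summed level of 49.5 to 91.9 FPKM in mutants and 43.1 to 71.7 FPKM in controls. Kdr, a receptor for vascular endothelial growth factor, averaged 9.75 ± 1.72 FPKM in mutants and 9.19 ± 1.79 FPKM in controls. Of 12 pericyte and meningeal markers 10 were tested and 0 passed in limma, also unadjusted at 0.05, with a median of 0.19 and a summed level of 79.7 to 192 FPKM in mutants and 66.2 to 156 FPKM in controls. Of the 10 dorsal telencephalon markers all were tested and 0 passed in limma, with 2 at an unadjusted p under 0.05 and a median of 0.16. Pax6, a transcription factor of cortical progenitors, averaged 31.0 ± 3.45 FPKM in mutants and 25.2 ± 4.63 FPKM in controls (log2 difference 0.30, limma adjusted p = 0.561). The part of these cell types in the globin levels was not tested.

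The genes whose levels followed the 7 most closely were taken as the 10 with the highest mean Pearson r to them over the 10 libraries, among 11227 compared genes. They were Creg1, Hsd3b6, Car2, Kel, Tspan12, Zfp961, Stac, Trim10, Acp5 and Mrps18c. Since the sets stand apart, their likeness is given over the 7 libraries of the first set, where the mean r was 0.76 to 0.89, against a median of 0.016 over all compared genes. These 7 libraries were among the 10 used to choose the genes, so the choice itself fixes high values. Creg1, which came first, had a mean r of 0.89 there and lay at 5.76, 6.81, 3.86, 4.06 and 7.65 FPKM in mutants, against 5.75, 6.25, 3.21, 2.12 and 5.51 FPKM in controls. Mutant 5 and mutant 2 were its highest libraries and control 4 its lowest, as for Hba-a2. Car2, a red cell carbonic anhydrase, lay at 5.81, 7.70, 5.23, 6.71 and 8.76 FPKM in mutants, against 7.03, 6.89, 4.24, 2.96 and 9.79 FPKM in controls. Kel, a blood group glycoprotein of the red cell membrane, lay at 1.76, 1.55, 0.634, 2.06 and 2.72 FPKM in mutants, against 1.66, 1.15, 0.359, 0.359 and 2.07 FPKM in controls. Car2, Kel and Trim10 belong to the red cell lists above. Ranked over the first set alone, Fech, the enzyme that puts iron into haem, had rank 32 and Lmo2 rank 45. The adult beta chains stood at rank 322 for Hbb-bt and 1135 for Hbb-bs. Over the 10 libraries, which mix the sets, the ranks were 21 for Fech, 25 for Lmo2, 1097 for Hbb-bt and 2363 for Hbb-bs.

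**Figure D5:**
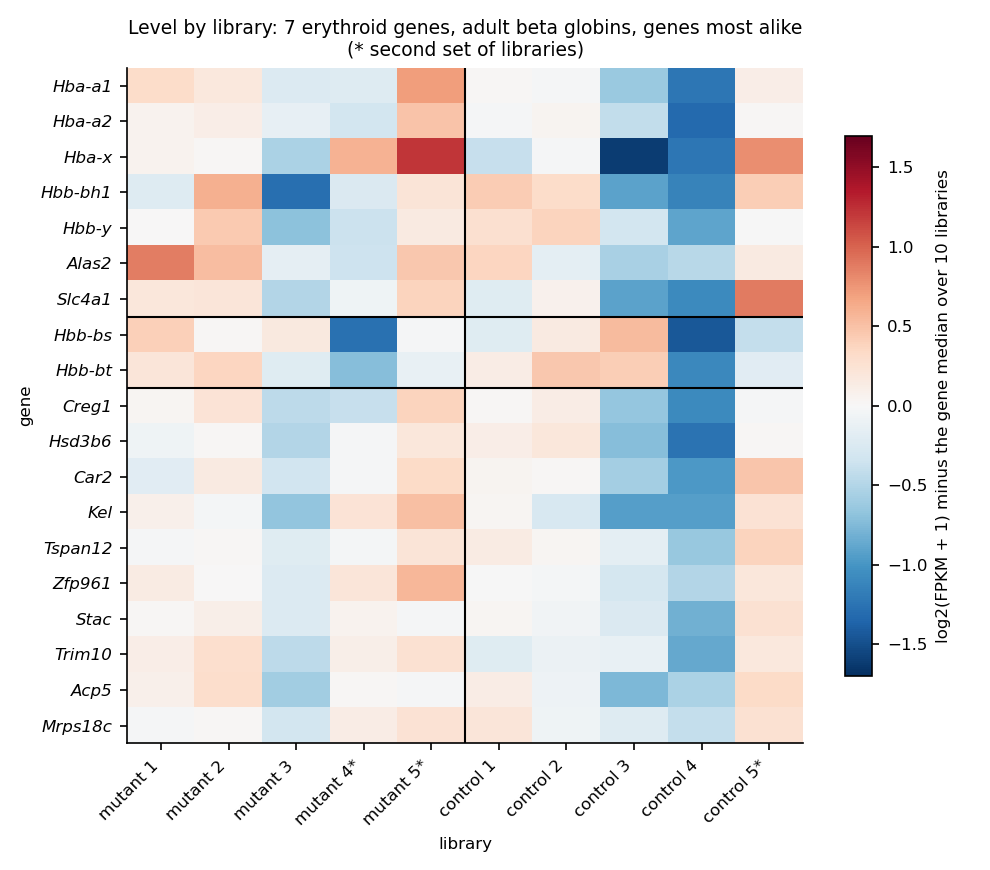
Level of each gene in each library, as log2(FPKM + 1) minus the gene's median over the 10 libraries, for the 7 erythroid genes, the adult beta chains and the 10 genes most alike, with mutants left of controls and the second set marked by asterisks. Control 4 is blue in every row; control 3 and mutant 3 are blue for Hba-x and Hbb-bh1, while Hbb-bs in control 3, at 706 FPKM, is red.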

How the data were processed

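Dissected tissue gave total RNA, which was depleted of ribosomal RNA and made into stranded libraries, as the labels' protocols state. HISAT2 and the builds GRCm38 and mm10 are named, per the submitters' processing notes. For each library the authors deposited gene symbols with values that were read here as FPKM from their range and steps. No source used here names the program, annotation or strand setting behind them.

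From the deposited FPKM, log2(FPKM + 1) was fitted in limma (version 3.58.1, R version 4.3.3) by genotype, with trend and robust moderation. The fit covered 13522 genes that reached 1 FPKM in 5 or more libraries, with Benjamini-Hochberg adjustment at 0.05. This scale understates the change of low genes. Levels of the 7 genes were also compared by a two-sided exact permutation test, with 252 splits. Tables and plots used Python 3.11.15, pandas 2.3.3, numpy 2.4.6 and matplotlib 3.10.9. The fits were tested on simulated data. Depth is an estimate, so no counting intervals are given.

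Symbols were looked up in GENCODE M21: 35718 matched directly, 1750 through an older name, and 1335 not at all. Ahsp, Hbb-b1 and Hbb-b2 were not analysed here. The 7 genes and the lists (other globins, globins of other tissues, haem synthesis, iron supply, membrane and skeleton, transcription factors, enzymes and maturation, platelet, white cell, endothelial, pericyte with meningeal, and dorsal telencephalon markers) were chosen with earlier results of these data known. All 7 genes are named. Of each list, those past the threshold or otherwise up to 4 with the highest mean FPKM could be named, and some results are not reported here. Klf1, Gata1, Fech and Trim10 were picked after their values were seen. Alternatives covered the pseudocount, filter, scaling, moderation, library set, replicate block and each library left out.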

Additional observations from a re-analysis of the deposited data

Results flagged for a closer look

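Of 124 groups of 5 libraries tested for a value far from the others, 10 had one, and chance gives about 1 in 20. Among the globin ratios, control 3 stood apart from the other controls with an embryonic share of 68.6%, an adult share of beta-like FPKM of 23.1% and a ratio of Hbb-bs to Hbb-bt of 1.10. These 3 values share the same adult beta levels. Control 4 stood below the other controls with 0.740 FPKM of Cygb and 5.70 FPKM of Dcn, and above them with 9.36 FPKM of Add2. It also stood apart with 0.117 FPKM of Mb, but there the other controls were at 0 and mutants reached 0.242 FPKM. Mutant 4 had 53.0 FPKM of Cat and mutant 3 had 12.8 FPKM of Kdr, each above the other mutants. Control 5 had 33.1 FPKM of Pax6, above the other controls. None of the 7 erythroid genes had such a value in either group.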

How the results depend on the processing

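In limma, 0 of the 7 erythroid genes passed the genotype test under any alternative, in either direction. The difference of Hba-a1, Hba-a2, Hba-x, Alas2 and Slc4a1 stayed above 0 throughout. Hbb-y turned to -0.094 at a common median ratio, -0.025 under quantile normalization and -0.031 at a common sum over protein-coding genes other than globins. Hbb-bh1 turned to 0.027 in the first set alone. These scalings moved the median of all genes (0.11 as deposited) to 0.0065, -0.0051 and 0.061. Leaving out 1 library at a time gave -0.25 to 0.27 for Hbb-bh1, -0.17 to 0.17 for Hbb-y, 0.28 to 0.62 for Hba-a1, 0.13 to 0.48 for Hba-a2, 0.48 to 1.08 for Hba-x, 0.26 to 0.56 for Alas2 and 0.082 to 0.57 for Slc4a1. The higher Hba-x of the second set was no longer called with no filter (1.28, adjusted p = 0.0589 in limma), under quantile normalization (1.05, adjusted p = 0.0615) or at the common protein-coding sum (1.10, adjusted p = 0.0629), and leaving out 1 library gave 1.05 to 1.49. The cause was not tested. Over all genes, 12 were higher and 9 lower as reported, against 0 and 2 with no filter, 74 and 15 in the first set alone, and 0 to 68 and 2 to 12 with 1 library left out. Whether the replicate numbers pair the libraries could not be settled. Same-numbered deviations correlated at -0.107 to 0.521, and mutants 2, 3 and 5 matched their own number best. The -0.107 was for number 4, whose mutant and control lay in different sets, so it cannot decide the pairing. The 0.521 was for number 5, whose mutant and control both lay in the second set. Control 5 was the only control of that set and mutant 4 also matched it best, so the 0.521 cannot decide it either. The other correlations were 0.0773 for number 1, 0.155 for number 2 and 0.236 for number 3, and mutant 1 matched control 4 best. With the replicate block the differences were the same and 9 genes were higher and 5 lower. In that fit 4 of the 7 fell under 0.05 before adjustment in limma, against 10.3% of all tested genes. These unadjusted values were 0.0069 for Hba-a1, 0.0081 for Alas2, 0.019 for Hba-x and 0.041 for Hba-a2. In the same fit limma gave adjusted p = 0.309 for Hba-a1, 0.322 for Alas2, 0.380 for Hba-x and 0.464 for Hba-a2. Without the block, leaving out 1 library brought Alas2 under 0.05 before adjustment without mutant 4, and Hba-x and Slc4a1 without control 5. Of all tested genes, 9.1% fell under 0.05 before adjustment in limma without mutant 4 and 20.7% without control 5. Hba-a1, Hba-a2, Hba-x and Alas2 were higher in the mutant in 5 of 5 same-numbered comparisons, as were 8.89% of all tested genes. Rough depths limit what can be said of genes near 1 FPKM.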
